A study of Equus caballus with 11 samples.

Results

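CpG shores are the flanks of regions that are rich in CpG dinucleotides. CpG methylation is the addition of a methyl group to cytosine, usually on both strands of the site. CpG-rich regions such as CpG islands often lie at gene starts and are commonly unmethylated, most other CpGs of a mammalian genome carry the mark, and shores lie where one state gives way to the other and are known for methylation that differs between tissues. The following describes such shores in the horse, as read by reduced representation bisulfite sequencing (RRBS), in which DNA is cut at CCGG sites and bisulfite makes unmethylated cytosines read as T.

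The libraries came from heart, lung and liver tissue of healthy horses, cold-blooded stallions of 1 to 2 years per the methods of the study, with 4 heart, 4 lung and 3 liver libraries. Horses 1, 2 and 4 gave all tissues and horse 3 gave heart and lung, and its liver was not analysed here. The pieces were taken from the left ventricle, the caudal lobe of the right lung and the right liver lobe, so each library is a mixture of the cell types of its tissue, and a difference between tissues cannot be told apart from a difference in cell mixture. The liver libraries of horses 2 and 1 were the shallowest and the deepest, with 3255257 and 25109840 reads summed over autosomal positions.

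A dense window was a fixed window of 1000 bp on chromosomes 1 to 31 (EquCab3.0) with at least 30 different CpGs listed in any of the 11 files, and a shore was formed by the 2 windows on each side of a dense window that were not dense themselves. The files gave 15390 dense windows and 46017 shore windows, of which 26349 held any listed CpG. Of the 269199 CpGs listed in shores, 4547 had at least 10 reads in all 11 libraries and are the CpGs described here (1.69%). They made up 6.67% of the 68147 CpGs read this deeply everywhere, lay in 1709 windows beside 1582 dense windows and were spread over all 31 autosomes. The first window of the shore held 3157 of them and the second 1390. The 2248 CpGs on the lower-coordinate side and the 2299 on the higher-coordinate side were methylated at 45.2% and 45.4% on average. Distance is counted from the edge of the dense window, which is a line of a fixed grid and not the measured end of a CpG island.

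The name shore was checked on the dense windows themselves. When all listed reads were pooled by tissue, 9906 of the 15390 dense windows were at or below 20% methylation in every tissue, 1986 were at or above 80% in every tissue, 3249 lay between these limits or differed between tissues, and 249 had too few reads. Dense windows are thus not all unmethylated CpG islands, and shores are described separately by the state of the dense window beside them. The limit of 30 listed CpGs did not fall at a step in methylation: CpGs of windows with 25 to 29 listed CpGs averaged 44.4% (43.7% to 44.9% over the libraries) and those of windows with 30 to 34 averaged 43.9% (42.0% to 45.3%).

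Shore CpGs were less methylated than the rest of the covered genome in every library. Averaged over CpGs, shores of the 4 heart libraries were methylated at 45.2% ± 0.424 (mean ± SD), those of the 4 lung libraries at 45.5% ± 0.588 and those of the 3 liver libraries at 45.2% ± 0.621. CpGs further from any dense window stood at 73.6% ± 0.578, 74.1% ± 0.363 and 73.9% ± 0.881 in the same order. The difference, shores minus further CpGs, was -29.5 to -27.5 percentage points over the 11 libraries, and no library's shore level came near its level elsewhere. Taken by horse, it was of the same sign in 4 of 4 horses, for which an exact sign-flip test gives p = 0.125, the smallest value 4 horses allow. CpG density moves with this contrast, since shore windows hold more listed CpGs than windows further out. Among windows of like density the shores were still lower, at 52.6% against 76.9% with 1 to 9 listed CpGs, 44.6% against 69.1% with 10 to 19, and 37.4% against 55.7% with 20 to 29.

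Single shore CpGs were mostly at one end of the scale or the other. In heart, 39.7% ± 0.108 of them were at or below 20% methylation and 30.5% ± 0.721 at or above 80%. Lung had 39.8% ± 0.666 and 30.7% ± 0.364, and liver 40.3% ± 0.982 and 30.8% ± 0.542. Of the further CpGs, 7.80% ± 0.209 were at or below 20% in heart and 57.4% ± 1.34 at or above 80%.

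The methylation of the shore rose with distance from the dense window. Over all libraries the mean was 33.6% at 1 to 250 bp, 34.8% at 251 to 500 bp, 44.3% at 501 to 750 bp and 49.0% at 751 to 1000 bp. It reached 62.2% at 1001 to 1250 bp and stayed between 58.0% and 62.2% up to 2000 bp. The share of CpGs at or below 20% fell from 54.2% in the first 250 bp to 19.9% in the last, and the median CpG went from 13.6% to 73.6%. Just outside the shore, at 2001 to 5000 bp, the mean was 68.3%, and beyond 20000 bp it was 74.7%. The change along the shore was therefore not complete at its outer limit. The SD of a CpG between libraries of 1 tissue grew as well, from an average of 4.63 points at 1 to 250 bp to 6.64 points at 1751 to 2000 bp. This SD includes the counting error of the reads, which is larger at middle levels than near the ends of the scale. The share of CpGs at middle levels rose from 25.1% to 37.6% between the same bins. Whether the horses themselves differed more in the outer shore was not tested.

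**Figure D1:**
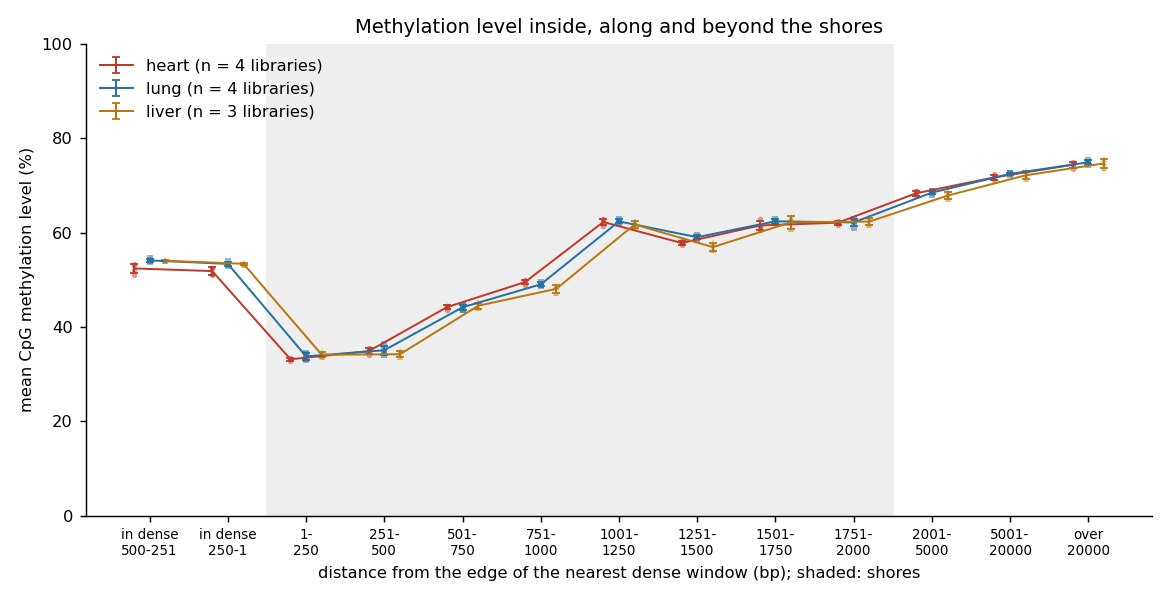
Mean CpG methylation level (%) against distance from the edge of the nearest dense window (bins of unequal width drawn at equal steps), with lines and bars for tissue means ± SD and small points for libraries, drawn slightly apart by tissue. Along the shaded shore all tissues climb from 33.6% to 62.2% on average, and the 3 lines stay close, being furthest apart at 1251 to 1500 bp with 59.0% in lung and 56.9% in liver.

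The size of the rise differed between tissues by less than the spread between libraries. The level in the last 500 bp exceeded that in the first 500 bp by 28.0 points ± 0.488 in heart, 28.0 ± 0.439 in lung and 28.1 ± 0.482 in liver. In exact 2-sided permutation tests, lung and heart had p = 0.971, lung and liver p = 0.857, and heart and liver p = 0.800 (0.971 after Benjamini-Hochberg adjustment in each). The mean shore level differed by 0.326, 0.336 and 0.0103 points in the same order, with p = 0.314, 0.343 and 0.914 by the same exact test (adjusted p = 0.514, 0.514 and 0.914). A comparison with liver has 4 against 3 libraries and cannot give less than 0.0571. With 4 against 4 libraries the smallest value is 0.0286.

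Across 8 distance bins and 3 comparisons, 24 exact permutation tests were run, and the lowest adjusted p was 0.274. With so few libraries none of them could pass 0.05 after adjustment, so the adjusted values cannot decide whether a bin differed. Only lung against heart at 1251 to 1500 bp had an unadjusted p below 0.05, with 59.0% ± 0.385 in lung and 57.8% ± 0.366 in heart (exact permutation p = 0.0286). All 4 lung libraries lay above all 4 heart libraries in that bin. At 1 to 250 bp heart stood at 33.2% ± 0.303 and liver at 34.1% ± 0.520, and at 751 to 1000 bp at 49.5% ± 0.392 and 48.1% ± 0.863, which do not overlap and are opposite in sign (exact permutation p = 0.0571 and adjusted p = 0.274 for each). Lung lay above liver at the same p values at 751 to 1000 bp, by 0.941 points, and at 1251 to 1500 bp, by 2.11 points, the largest difference of the 24.

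Shores differed most by the state of the dense window beside them. Beside the 1029 unmethylated dense windows, 2785 shore CpGs averaged 30.3%. They began at 11.9% in the first 250 bp (11.1% to 13.2% over the libraries) and reached 22.5% at 251 to 500 bp, 32.2% at 501 to 1000 bp, 51.5% in the 500 bp after that and 54.8% (53.1% to 56.5%) in the last 500 bp. The 620 CpGs beside 181 methylated dense windows went the other way, from 88.7% (86.6% to 89.9%) in the first 250 bp to 81.2% (78.6% to 83.1%) in the last 500 bp. The 1094 CpGs beside 352 dense windows of the class between had no steady course, with 57.3% in the first 250 bp, 67.1% at 1001 to 1500 bp and 58.2% beyond. A further 48 CpGs lay beside 20 dense windows with too few reads. The rise along the shore was thus found at the flanks of unmethylated dense windows, while the flanks of methylated ones were high throughout.

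**Figure D2:**
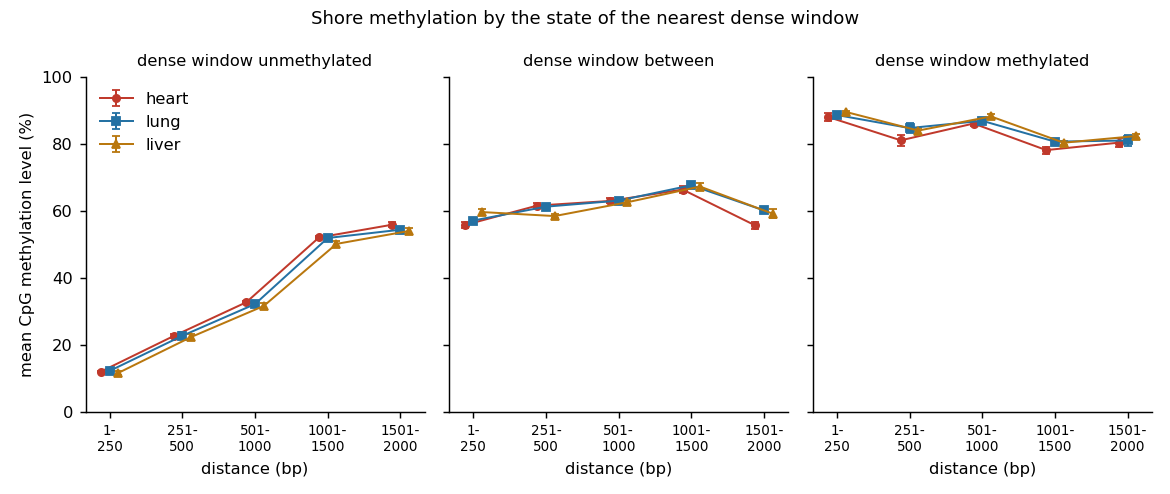
Mean CpG methylation level (%) of shore CpGs against distance (bp), in panels by the state of the nearest dense window, with tissue means ± SD over 4 heart, 4 lung and 3 liver libraries. Averaged over all libraries, the left panel climbs from 11.9% to 54.8%, the right panel starts at 88.7% and ends at 81.2%, and the middle panel stays between 57.3% and 67.1%.

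The rise was also seen within classes of CpG density. In shore windows with 1 to 9 listed CpGs the level went from 36.1% in the first 500 bp to 67.6% in the last, in those with 10 to 19 from 33.5% to 62.6%, and in those with 20 to 29 from 32.5% to 51.2%. In the first 500 bp the levels of the density classes were thus close to each other, and in the last the densest shores were the lowest. CpGs within 2000 bp of dense windows on both sides (340 of them) averaged 50.8%, and those beside a dense window on 1 side averaged 44.9%.

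Shores and dense windows compared in opposite ways depending on how they were set against each other. Over all CpGs with the required depth, shores were lower than dense windows, and the difference was -6.96 points ± 0.655 in heart, -8.25 ± 0.639 in lung and -8.56 ± 0.508 in liver. The difference did not separate the tissues after adjustment (exact permutation p = 0.0857 between lung and heart, 0.629 between lung and liver and 0.0571 between heart and liver, adjusted p = 0.257, 0.971 and 0.257). When each dense window was set against its own shore, which could be done for 105 dense windows with at least 3 such CpGs on both parts, the sign turned. Here each dense window counts once, while above each CpG counts once. The choice of windows and the weighting thus changed together, and their parts in the turn were not tested. Dense windows then averaged 44.2% and their shores 52.5%, a difference of 8.21 points (7.56 to 8.92 over the libraries), and the shore was the higher in 67 of 105. Both contrasts had the same sign in 4 of 4 horses, where the exact sign-flip test can reach p = 0.125 at best. For these windows the class was taken from the CpGs read at depth, with the same limits, and not from all listed reads. The same CpGs give the dense-window mean, so the class favours a higher shore at unmethylated windows and a lower one at methylated ones. The shore was higher at 32 of 41 unmethylated dense windows, with means of 23.5% against 3.57%. It was higher at 23 of 37 windows of the class between, with 59.4% against 55.4%, and at 12 of 27 methylated ones, with 87.0% against 90.7%.

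Tissue differences were then counted CpG by CpG. A CpG was called when an adjusted p below 0.01 in a moderated quasi-likelihood test, run over all 68147 CpGs, came with a difference of at least 25 points, the first tissue minus the second. The shares of shore CpGs called were near those of all CpGs. In lung against heart, 96 of 4547 shore CpGs were called (2.11%, against 2.90% of all CpGs tested), 48 higher in lung (1.06%, against 1.64%) and 48 lower (1.06%, against 1.26%). In lung against liver, 182 were called (4.00%, against 3.91%), 87 higher in lung (1.91%, against 2.30%) and 95 lower (2.09%, against 1.61%). In heart against liver, 279 were called (6.14%, against 5.91%), 150 higher in heart (3.30%, against 3.00%) and 129 lower (2.84%, against 2.91%). Shares this near to the background do not set shores apart from the covered genome.

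Most of the contrast lay with the dense windows. Their 10175 CpGs were called in 0.678%, 0.875% and 1.44% of cases in the order above, and the 53425 further CpGs in 3.39%, 4.48% and 6.75%. Shores stood between both in every comparison. The median absolute difference of shore CpGs was 3.10, 3.20 and 3.76 points, and that of all CpGs was 4.08, 4.17 and 4.6 points.

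These CpG counts depended on the fit. The shares of all CpGs called under the other fits are not given here, so the counts below do not tell shores from the covered genome. When the horse was added as a block, 25, 0 and 0 shore CpGs were called by the moderated test, and 844, 658 and 886 had p below 0.05 before adjustment. The blocked comparisons with liver could not use the horse without a liver library, and the block itself takes up degrees of freedom. Whether calls were lost through the pairing or through these limits was not tested. A block in edgeR gave 126, 219 and 287 calls. Leaving out the lung library of horse 2 left 55 calls in lung against heart, and leaving out the liver library of horse 1, the deepest, left 116 and 158 in the comparisons with liver.

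The share of called CpGs was larger in the outer shore. In the first 1000 bp it was 1.77%, 3.61% and 5.16% in the order above, and in the second 2.88%, 4.89% and 8.35%. The lowest share was at 1 to 250 bp in each comparison, where 12, 41 and 53 of 1281 CpGs were called. The highest share in both comparisons with liver was at 1251 to 1500 bp, with 32 and 43 of 375 CpGs. In lung against liver the larger outer share rested on this bin. The other bins past 1000 bp had 3.23% to 4.11%, and the bins of the first 1000 bp 3.20% to 4.98%. In lung against heart it rested on the bin at 1751 to 2000 bp, with 16 of 327 CpGs (4.89%). There, the other bins past 1000 bp had 1.90% to 2.42%, and the bins of the first 1000 bp 0.937% to 2.99%. The outer shore also holds more CpGs of middle level, which have more room to differ, and the part of this in the shares was not tested. Called CpGs of 1 window share reads and are not independent of each other.

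**Figure D3:**
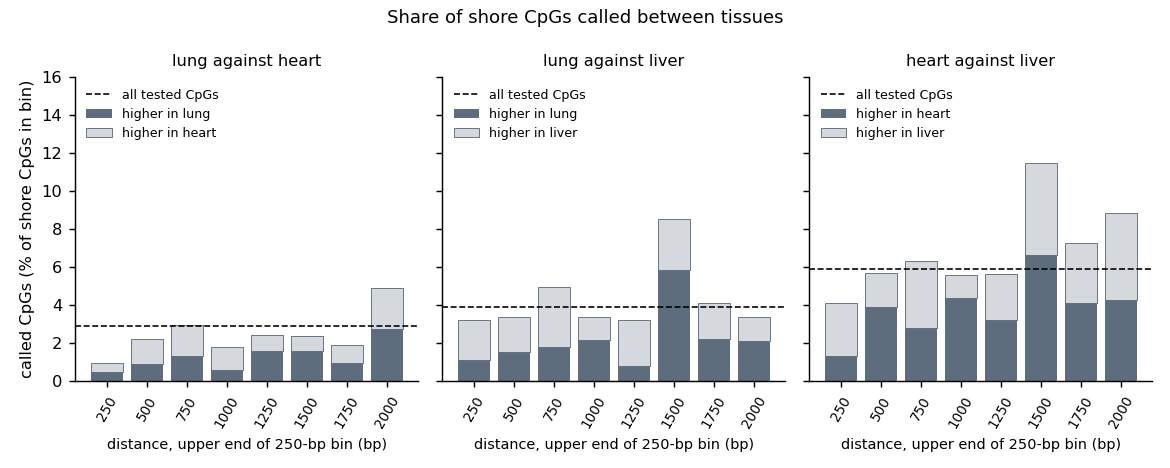
Called CpGs as a percentage of the shore CpGs in each 250-bp bin, in panels by comparison, with bars stacked by direction and a dashed line at the share among all 68147 CpGs tested. The bin at 1251 to 1500 bp stands highest in both comparisons with liver (32 and 43 of 375 CpGs), and the first bin is low in each panel.

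Called CpGs were also split by the state of the dense window. In heart against liver, where 3.00% of all CpGs tested were higher and 2.91% lower in heart, 107 of the 2785 CpGs beside unmethylated dense windows were higher in heart (in 73 windows) and 55 were higher in liver (in 38 windows). Of the 1094 CpGs beside the class between, 39 in 24 windows were higher in heart and 62 in 27 windows were higher in liver. Of the 620 beside methylated dense windows, 4 were higher in heart and 11 in liver. The difference between these splits was not tested, and with the horse as a block none of these CpGs was called by the moderated test, as given above. Without the liver library of horse 1 the counts were 61 and 26 beside unmethylated dense windows, 26 and 40 beside the class between, and 4 and 1 beside methylated ones. Beside methylated windows the direction turned only without that library. The counts there were also small without other liver libraries, with 3 and 6 without horse 2 and 3 and 5 without horse 4. In lung against liver, 2.30% of all CpGs tested were higher and 1.61% lower in lung. There, 53 shore CpGs were higher and 51 lower in lung beside unmethylated dense windows, 32 and 42 beside the class between, and 2 and 0 beside methylated ones. In lung against heart, with 1.64% of all CpGs tested higher and 1.26% lower in lung, the counts were 23 and 33, 19 and 12, and 6 and 2 in the same order.

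The reads of each shore window were also summed and tested as 1 unit. The 698 shore windows with at least 3 of the CpGs described here were tested among 8301 such windows of the genome, and a call required a difference of 10 points or more with an adjusted p under 0.05. In lung against heart 68 were called (9.74%, against 11.8% of all windows), 34 in each direction (4.87%, against 6.48% higher and 5.30% lower in lung). In lung against liver 72 were called (10.3%, against 10.9%), 26 higher in lung (3.72%, against 5.20%) and 46 lower (6.59%, against 5.69%). In heart against liver 115 were called (16.5%, against 16.5%), 50 higher in heart (7.16%, against 7.12%) and 65 lower (9.31%, against 9.41%). As with single CpGs, the shore shares did not stand apart from the background. Leaving out any 1 library or taking the horse as a block kept the counts within 1.5 times these values, while other depth limits moved them further, as given below. The limits for a call differ from those for single CpGs, so the steadiness of windows and CpGs cannot be compared. Of the called windows, 38 of 432 lay beside unmethylated dense windows in lung against heart, 24 of 174 beside the class between and 6 of 86 beside methylated ones. The corresponding counts were 40, 29 and 3 in lung against liver and 63, 45 and 6 in heart against liver, and the class between had the largest share in each comparison. That class holds, by its definition, the dense windows that differ between tissues.

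A called shore seldom had a dense window measured to the same depth beside it. This was so for 7, 10 and 8 of the called windows in the 3 comparisons. The dense window was called in the same direction for 3, 4 and 2 of them and in the opposite direction for 0. Over all 113 shore windows with such a neighbour the median absolute difference was 2.16, 1.80 and 2.62 points in the shore and 1.5, 1.75 and 1.61 points in the dense window.

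The shore windows with the largest differences among the 221 with at least 5 CpGs are described next, each with its mean CpG level per library in the order of the horses. Genes are not named, since no annotation of this assembly was used here. The largest differences among these were found where liver alone was methylated. In chr11:60519001-60520000 (7 CpGs, 2 windows from the dense window at chr11:60517001-60518000) the heart libraries were at 0%, 0.556%, 1.80% and 0%, the lung libraries at 0%, 0%, 4.40% and 0%, and the liver libraries of horses 1, 2 and 4 at 53.6%, 59.7% and 66.3%. Liver did not overlap with the other tissues, and the depth-weighted difference was -58.6 points for heart against liver (adjusted p = 2.08e-06) and -58.1 for lung against liver (adjusted p = 3.27e-05). In chr12:34445001-34446000 (7 CpGs, next to chr12:34446001-34447000) heart was at 0.717%, 0.702%, 1.31% and 0%, lung at 1.53%, 1.90%, 1.19% and 4.08%, and liver at 50.1%, 56.8% and 52.6%. The differences were -51.4 points for heart against liver (adjusted p = 3.98e-07) and -49.9 for lung against liver (adjusted p = 1.90e-06).

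At both places the dense window moved with its shore. Pooled over all listed reads of a tissue, the dense window on chromosome 12 was methylated at 0.683% in heart (293 CpG read counts), 1.06% in lung (378) and 66.0% in liver (517). The one on chromosome 11 stood at 8.53%, 4.71% and 57.0% with 563, 446 and 416 counts. By these pooled values the tissue differences were not limited to the flank. No CpG of either dense window was read at depth in all libraries, so the spread between libraries is not given there. The window between shore and dense window on chromosome 11 was not described.

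Other shores differed beside a dense window that was unmethylated in every tissue. In chr13:40847001-40848000 (5 CpGs) heart was at 32.9%, 14.8%, 31.4% and 32.5%, lung at 46.9%, 27.4%, 47.5% and 34.7%, and liver at 71.0%, 62.7% and 65.8%. All liver libraries lay above all others, with -41.3 points for heart against liver (adjusted p = 0.000297) and -29.8 for lung against liver (adjusted p = 0.00391), and the dense window beside it was at 4.56%, 2.36% and 0.368% in heart, lung and liver. In chr5:92906001-92907000 (5 CpGs) heart was at 13.8%, 17.5%, 20% and 15%, lung at 3.47%, 6.32%, 10.7% and 6.70%, and liver at 46.2%, 35.9% and 33.3%. Here the order liver, heart, lung held without overlap, and all 3 comparisons were called, with -33.5 points for lung against liver (adjusted p = 0.000195), -22.9 for heart against liver (adjusted p = 0.00213) and -10.6 for lung against heart (adjusted p = 0.00940). Its dense window was at 1.03%, 0% and 0.820%, from 195, 131 and 122 counts. A count of 0 among so few reads leaves room for a low level.

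Heart was the tissue set apart in a further group. In chr31:8129001-8130000 (6 CpGs) heart was at 58.3%, 66.3%, 54.2% and 66.0%, lung at 88.8%, 91.9%, 86.7% and 91.3%, and liver at 86.5%, 79.8% and 74.2%. Heart was below all other libraries, and the difference was 29.1 points for lung against heart (adjusted p = 7.51e-05) and -20.4 for heart against liver (adjusted p = 0.00492). In chr4:65119001-65120000 (5 CpGs) heart was higher, at 42.0%, 34.5%, 51.5% and 27.0%, with lung at 17.1%, 10.2%, 12.0% and 17.9% and liver at 14.3%, 12.9% and 8.48%. The differences were -24.5 points for lung against heart (adjusted p = 0.00199) and 26.7 for heart against liver (adjusted p = 0.00134), and heart did not overlap with either. The dense windows beside both shores were at or below 3.59% in every tissue. In chr3:23780001-23781000 (5 CpGs) heart averaged 47.1% ± 6.16, lung 73.9% ± 7.64 and liver 85.3% ± 2.29, beside a dense window at 26.7%, 24.1% and 25.7%. In chr7:661001-662000 (6 CpGs) heart, at 23.8% to 33.2%, was above all lung and liver libraries, and lung minus heart was -20 points (adjusted p = 0.000950). In chr13:3926001-3927000 (6 CpGs) lung was the lowest tissue on average, with 63.8% ± 5.29, 41.1% ± 7.73 and 52.6% ± 8.30 in heart, lung and liver, and lung minus heart was -22.4 points (adjusted p = 0.00407), while liver overlapped with both.

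Lung stood above both other tissues in chr11:24742001-24743000 (9 CpGs). Its libraries were at 39.5%, 27.7%, 35.8% and 31.0%, while heart was at 10.4%, 15.2%, 7% and 7.36% and liver at 16.7%, 24.4% and 17.0%. No lung library overlapped with heart or liver, and the differences were 22.4 points against heart (adjusted p = 0.000275) and 15.5 against liver (adjusted p = 0.00372). The call against liver was lost without the liver library of horse 1 (14.1 points, adjusted p = 0.0642) and at 20 or more reads (13.8 points, adjusted p = 0.0608). The dense window was pooled at 3.17%, 10% and 1.5% in heart, lung and liver.

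Liver was the lower tissue in several others. In chr3:589001-590000 (6 CpGs) heart averaged 50.2% ± 6.50, lung 35.9% ± 8.68 and liver 19.8% ± 5.16, and heart exceeded liver by 29.4 points (adjusted p = 0.000711). In chr8:59760001-59761000 (7 CpGs) heart was at 54.7% to 70.2% and liver at 50.4%, 41.6% and 21.1%, and the difference of 22.9 points (adjusted p = 0.0283) was no longer called with the horse as a block (22.2 points, adjusted p = 0.0561), nor without heart of horse 2, 3 or 4 or liver of horse 4, the last of which left 13.1 points (adjusted p = 0.0976). In chr18:59740001-59741000 (7 CpGs) lung averaged 33.9% ± 7.57 and liver 17.1% ± 3.66 (14.6 points, adjusted p = 0.0241). That call was lost without lung of horse 1 or any 1 of the liver libraries. With at least 20 reads required, only CpGs with tissue means of 0% to 1.89% remained, and their difference was -0.840 points. Heart, at 32.5% ± 1.33, exceeded liver by 13.6 points in the full window (adjusted p = 0.00142).

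**Figure D4:**
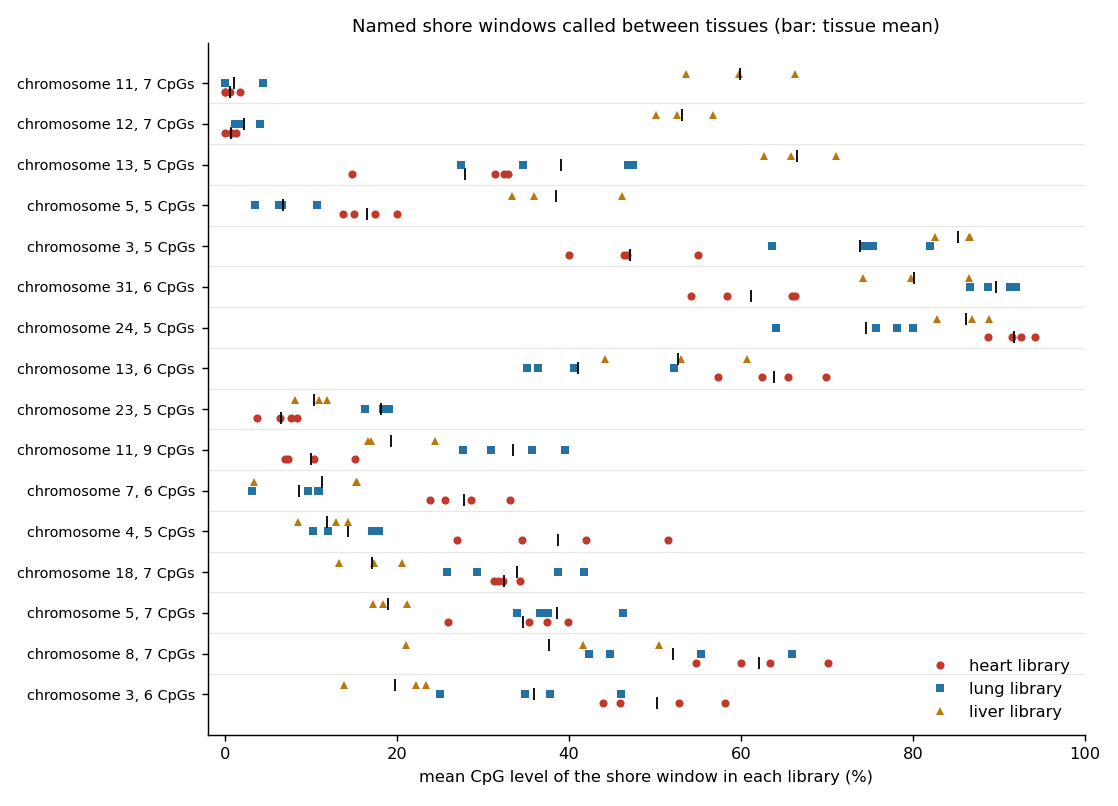
Mean CpG level (%) of the 16 named shore windows in each library, 1 row per window (labelled by chromosome and number of CpGs), with coloured points for libraries and black bars for tissue means. Liver stands alone on the right in the upper rows on chromosomes 11 and 12 and furthest left on average in the bottom rows on chromosomes 3, 8, 5 and 18.

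For 3 of the called shores, the dense window beside them was read at depth in all libraries and was unmethylated. Levels could thus be given CpG by CpG on both sides of the edge. No CpG was read at depth between -99 and 653 bp from the edge on chromosome 5. On chromosome 24 this gap ran from -323 to 744 bp, so where the level changed was not seen at these places. At chr5:39213001-39214000, 4 CpGs in the last part of the dense window had tissue means of 0% to 2.27%. The 7 shore CpGs began 653 bp past its end, at 15.7%, 7.82% and 0% in heart, lung and liver, and ended 878 bp past it at 63.0%, 76.9% and 36.0%. Liver was the lowest tissue at every one of these CpGs. As a window, liver was at 18.4%, 21.1% and 17.2%, below heart (25.9% to 39.9%) by 16.1 points (adjusted p = 0.0045) and below lung (34.0% to 46.3%) by 19.4 points (adjusted p = 0.000936).

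At chr24:46621001-46622000 the levels on both sides of the edge were far apart. The 7 CpGs of the dense window had tissue means of 0% to 1.56%, and the 5 shore CpGs, 744 to 794 bp past its end, were at 87.5% to 95.4% in heart, 74.9% to 95.8% in liver and 61.8% to 81.8% in lung. Lung libraries were at 78.1%, 80%, 64.1% and 75.8% and heart libraries at 92.6%, 91.5%, 94.2% and 88.7%, a difference of -15.7 points with no overlap (adjusted p = 0.00132). Against liver, at 88.8%, 82.9% and 86.9%, the difference was -10.9 points (adjusted p = 0.0489), and it was not called with the horse as a block (-9.29 points, adjusted p = 0.0685) or without lung of horse 1, 3 or 4 or any 1 of the liver libraries.

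At chr23:1001-2000 the difference crossed the edge of the dense window. The 5 shore CpGs, 48 to 83 bp past the edge, were at 14.0% to 23% in lung, 3.65% to 8.03% in heart and 7.5% to 13.2% in liver. Lung libraries were at 19.1%, 18.4%, 18.6% and 16.3% and heart libraries at 3.69%, 8.36%, 7.69% and 6.43%, a difference of 12.0 points (adjusted p = 0.000435). Of the 7 dense-window CpGs within 200 bp of the edge, 6 were at 15.4% to 37.5% in lung and 4.06% to 9.90% in heart, and the other was at 0% and 1.92%. This shore lies at the first bases of the chromosome in the assembly.

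**Figure D5:**
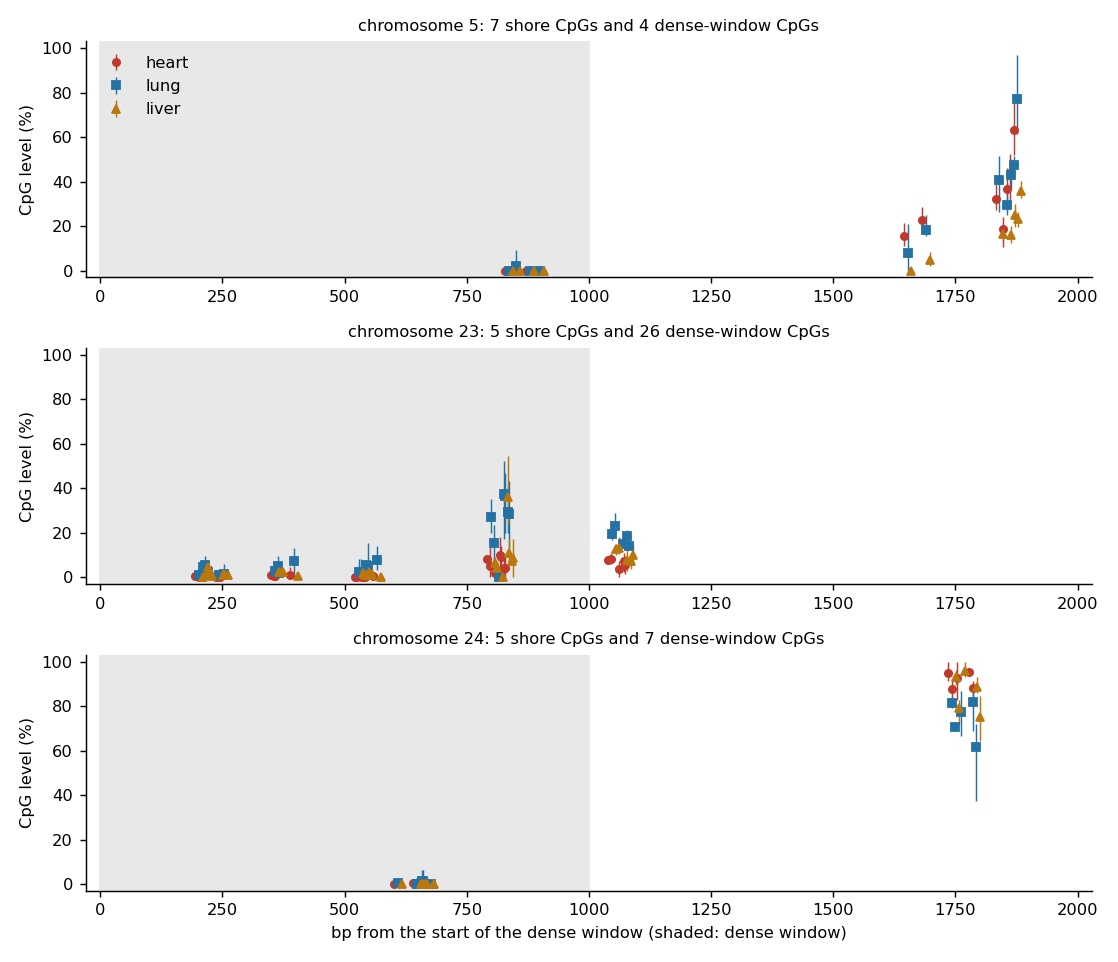
CpG level (%) against bp from the start of the dense window (shaded) for 3 shores beside dense windows that were unmethylated in all tissues, with points for tissue means, bars from the lowest to the highest library, and tissues drawn 8 bp apart for legibility. On chromosome 5 liver lies lowest at all 7 shore CpGs, on chromosome 24 lung lies below heart at all 5, and on chromosome 23 lung lies above heart at all 5 shore CpGs and at 6 of the 7 dense-window CpGs nearest to the edge.

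The shore windows with the most CpGs did not differ between tissues past the thresholds. The 23 CpGs of chr19:4949001-4950000, beside an unmethylated dense window with 91 listed CpGs, averaged 1.29% ± 0.567 in heart, 3.11% ± 1.59 in lung and 1.69% ± 0.732 in liver, so this shore was unmethylated like its neighbour. The 20 CpGs of chr13:23756001-23757000 were at 33.4% ± 0.800, 33.9% ± 3.14 and 33.2% ± 2.53, beside a dense window at 46.7%, 47.7% and 42.7%. The 17 CpGs of chr9:30192001-30193000 were at 33.5% ± 2.32, 33.0% ± 5.42 and 38.6% ± 7.29. Heart against liver had an adjusted p of 0.0292 there, with a difference of -8.81 points that did not reach 10.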

How the data were processed

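RRBS libraries (NuGEN Ovation kit, NextSeq 500, 75-bp single-end reads per the labels) were mapped by the authors to EquCab3.0. The submitters' processing notes name FastQC and BSMAP (versions not given in the sources used here). For each CpG cytosine and strand, the deposited files hold a read count (coverage, as whole numbers) and the percent of C and of T among the reads, at positions with at least 5 reads. Methylated reads were recovered as coverage times percent, and strands of a CpG were combined. Recovered counts matched the deposited percent within 0.05 points at 99.8% or more of positions. Whether a window was dense or a CpG could be described therefore depended on depth, and the median depth of shore CpGs in a library was 15 to 50 reads. Reads may be PCR copies, so depth covers counting error only.

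The members, lists and tests were chosen with earlier results of these data known. Each CpG with at least 10 reads in all 11 libraries was tested by logistic regression on tissue. The Pearson dispersion was moderated with squeezeVar of limma 3.58.1 (prior from CpGs pooled at 2% to 98%), floored at 1 and entered into quasi-likelihood F tests, with p-values adjusted by Benjamini-Hochberg over all CpGs. Windows were tested likewise on summed reads of at least 3 CpGs. Differences are depth-weighted, first tissue minus second, while printed tissue values are unweighted means over CpGs, with SD over libraries. Named windows were, per comparison and direction, the 3 called windows with at least 5 such CpGs and the largest absolute difference, up to 2 per comparison beside an unmethylated dense window read at 10 reads in all libraries, and the 3 with most CpGs. The dense-window classes from all listed reads (at least 30 counts per tissue) were chosen after few dense windows proved to be read in all libraries. Where a dense window was set against its own shore, its class came from the mean of at least 3 CpGs read at depth. Library means were compared by exact 2-sided permutation tests in scipy 1.17.1. Groups follow the labels, in which equal numbers are 1 horse, so numbers pair the samples. Within horses, the deviations of shore CpGs from tissue means had correlations of 0.00962 to 0.177 for lung with heart (across horses at most 0.0373), 0.133 to 0.194 for lung with liver (0.0838) and 0.0191 to 0.165 for heart with liver (0.0409). Libraries of a tissue differed beyond sampling noise in all 15 pairs (chi-square per degree of freedom 1.30 to 1.65). edgeR 4.0.16 was run on methylated and unmethylated counts as an alternative, beside other depth limits, density limits, a shifted grid, a site set for the 2 tissues compared, and each library left out. The fits were tested on simulated data. With the comparisons in the order of the correlations above, simulated differences of 30 points were recovered at 19%, 13% and 17% of changed CpGs. A larger simulated difference was recovered at 72%, 44% and 53%, and false calls numbered 0, 0 and 2. Most simulated differences of 30 points were thus missed, and recovery was unequal between comparisons. Gene annotation was not used here, since the gene table belongs to another assembly. Figures were drawn with matplotlib 3.10.9.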

Additional observations from a re-analysis of the deposited data

Results flagged for a closer look

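In groups of 4 libraries, 1 library stood far from the other 3 in 7 of 60 groups of values checked, where chance gives about 1 in 20. The heart library of horse 1 had the lowest shore level, 44.5% against 45.4% in each of the others, and the lowest level at 501 to 750 bp, 43.5% against 44.3% to 44.5%. The lung library of horse 3 had a shore minus dense window difference of -7.30 points against -8.65 to -8.48. The same library was at 3.12% against 9.72% to 11% in chr7:661001-662000 and at 4.40% against 0% in chr11:60519001-60520000. Heart of horse 2 was at 14.8% against 31.4% to 32.9% in chr13:40847001-40848000. Lung of horse 1 was at 41.2% against 30.1% to 30.5% in chr9:30192001-30193000. The calls at the first 3 of these windows were kept when each of these libraries was left out.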

How the results depend on the processing

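Counts of called shore CpGs moved with the replicate block and with depth, and those of windows with depth. Values are given for lung against heart first, then lung against liver, then heart against liver. At 20 or more reads 12, 31 and 47 CpGs and 16, 16 and 22 windows were called, and at 5 or more reads 274, 451 and 800 CpGs and 250, 238 and 381 windows. These settings also change how many CpGs are tested. The shares called among all CpGs and windows under the settings of this section are not given. With reads required in the 2 tissues only, lung against heart had 169 CpGs and 126 windows. With dense windows from 40 CpGs, the comparisons with liver had 99 and 171 CpGs and 44 and 69 windows. With the horse as a replicate block, 25, 0 and 0 CpGs were called by the moderated test and 126, 219 and 287 by edgeR, and the window counts (74, 80 and 114) changed by less than 1.5 times. With liver, the block also dropped the heart or lung library of the horse without liver, and it leaves fewer degrees of freedom. The cause of the lost CpG calls was not tested. Leaving out 1 library gave 55 to 89, 116 to 181 and 158 to 253 CpGs. The share of called CpGs higher in lung than in liver was 47.8% as reported, 38.7% at 20 reads, 59.9% at 5 reads and 62.2% with dense windows from 20 CpGs, and that of windows was 36.1%, 50.0%, 50.8% and 48.1%. For heart against liver the CpG share was 53.8%, and 42.6% at 20 reads.

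The library means did not pass 0.05 as reported, which the comparisons with liver could not do. Under an alternative, 4 lung against heart values did, each at the smallest exact permutation p of 0.0286. They were the shore level at 20 reads (0.994 points) and the rise with dense windows from 40 CpGs (1.06). The others were shores minus dense windows with dense windows from 20 CpGs (-1.13) or each window counted once (-0.690). Several differences within the spread changed sign. In the comparisons with liver, the block value equals the value without the heart or lung library of the horse that had no liver. The heart against liver shore level (0.0103 points) was -0.721 at 20 reads, -0.114 with dense windows from 40 CpGs, -0.0776 with the replicate block and -0.169 to 0.369 without 1 library. The lung against heart rise (0.00586) was -0.185 at 5 reads, -0.425 with dense windows from 20 CpGs, -0.559 on the shifted grid and -0.180 to 0.233 without 1 library. The lung against liver rise (-0.0942) was 0.468 at 20 reads, 0.954 at 5 reads, 0.128 with dense windows from 40 CpGs, 0.876 on the shifted grid, 0.519 with each window once, 0.0782 with the replicate block and -0.371 to 0.0782 without 1 library. The heart against liver rise (-0.100) was 1.14 at 5 reads, 0.230 with dense windows from 20 CpGs, 1.44 on the shifted grid, 0.416 with each window once, 0.0497 with the block and -0.377 to 0.0598 without 1 library. Shores minus dense windows in lung against liver (0.308) was -0.967 weighted by depth, -0.00968 with the block and -0.00968 to 0.600 without 1 library. The rise itself, near 28 points, was positive in each library. Of 278 alternative values at named windows 259 kept their call, 18 lost it and 1, on chromosome 18 at 20 reads (-0.840), changed sign. At that depth only the CpGs of this window that were near 0% in every tissue remained. Liver of horse 2 had a median of 15 reads per CpG, and without it 161 and 224 CpGs were called against liver.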

Other observations

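Shore CpGs were not spread evenly over the chromosomes. Chromosome 7 held 445 of them, chromosome 12 held 333 and chromosome 29 held 29. On chromosome 12 they made up 14.4% of the CpGs read at depth, and their mean level was 67.1%, the highest of the 31 autosomes, while chromosome 17 had the lowest at 25.5%. Within 5 Mb of the highest listed position of a chromosome lay 15.3% of the shore CpGs and 11.7% of all CpGs read at depth. These shore CpGs were methylated at 57.1% ± 0.538, 58.1% ± 0.594 and 60.2% ± 0.612 in heart, lung and liver, and those elsewhere at 43.0% ± 0.404, 43.2% ± 0.591 and 42.5% ± 0.622. Near the chromosome ends the 3 liver libraries lay above all others. This split was looked at after the values were seen and was not tested.

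A measured shore lay beside 27 dense windows that were methylated by their CpGs read at depth. Their shores were at 85.6% ± 0.312, 86.9% ± 0.576 and 89.0% ± 0.606 in heart, lung and liver, without overlap between tissues. The dense windows were at 90.6% ± 0.294, 90.8% ± 0.837 and 90.8% ± 0.455. Over all 620 shore CpGs beside dense windows methylated by all listed reads, the tissues did overlap. They had 82.3% to 84.2% in heart, 83.6% to 85.4% in lung and 84.9% to 85.7% in liver. The subset was likewise chosen after its values were seen and was not tested.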
